A study of Mus musculus with 7 samples.

Results

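Potassium channels of pancreatic islets were examined in mice in which Wnt4 had been inactivated in β-cells. Of the 9 channel genes chosen by name, Kcnj11 and Abcc8 encode the ATP-sensitive (KATP) channel of the β-cell, Kcnj8 and Abcc9 the KATP channel of vascular muscle and pericytes, and Kcnk16, Kcnk3, Kcnh6, Kcnq1 and Kcnma1 other potassium channels. Every non-control probe whose accession maps to 1 of these symbols was kept, which gave 20 of the 56605 probes on the array. Of these, 18 were well above background, by the scanner software's own flag, on at least 3 of the 7 arrays and entered the test, as did 26153 probes in all. The other two both target Kcnq1.

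Islet RNA of 7 mice was hybridised to single-colour oligonucleotide arrays, on which a short DNA spot reports 1 transcript. The 4 Wnt4βKO mice were Pdx1CreER Tg+; Wnt4fl/fl and the 3 control mice were Pdx1CreER Tg-; Wnt4fl/fl littermates, so both groups carried the floxed alleles and only the Wnt4βKO mice carried the inducible Cre recombinase, which the Pdx1 promoter drives. Both groups received tamoxifen by gavage at 4 to 5 weeks of age, and islets were taken at 7 weeks from males of C57BL/6J crosses. The study's records state that 1 further control sample was left out by the authors for quality, and no group carried the Cre without the floxed alleles. The islets were bulk tissue, in which fewer cells of a type and less RNA per cell cannot be told apart.

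KATP channels close when ATP rises in a glucose-stimulated β-cell, which depolarises the membrane and lets calcium in to trigger insulin release. Each channel joins pore-forming subunits, Kir6.2 (Kcnj11) or Kir6.1 (Kcnj8), with sulfonylurea receptors, SUR1 (Abcc8) or SUR2 (Abcc9). Sulfonylureas close the β-cell channel by binding SUR1, and loss-of-function changes in either of its genes cause congenital hyperinsulinism. Two-pore, voltage-gated and calcium-activated channels set the resting potential or end the action potential. The genes of each KATP channel are neighbours in the mouse genome (RefSeq, GRCm38.p6). Kcnj8 and Abcc9 are next to each other on chromosome 6, and Kcnj11 and Abcc8 on chromosome 7 are separated by 1 annotated gene, the long non-coding RNA Gm51481.

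Start-site sequences were held for 5 of the 9 genes in the RefSeq table used here, each from 250 bases before to 50 bases after the annotated start. The 3 printed here belong to both vascular KATP genes, to show the starts of that neighbouring pair, and to Kcnk16, a two-pore channel of β-cells, as the islet channel for which a start was held and whose single probe was well above background on all arrays. They lie on the minus strand at chr6:142571565-142571864 (Kcnj8), chr6:142702225-142702524 (Abcc9) and chr14:20269220-20269519 (Kcnk16) of GRCm38.p6, and are written from 5′ to 3′ on the gene's strand. Capitals mark E boxes, the motif CANNTG bound by basic helix-loop-helix factors such as Neurod1.
Kcnj8: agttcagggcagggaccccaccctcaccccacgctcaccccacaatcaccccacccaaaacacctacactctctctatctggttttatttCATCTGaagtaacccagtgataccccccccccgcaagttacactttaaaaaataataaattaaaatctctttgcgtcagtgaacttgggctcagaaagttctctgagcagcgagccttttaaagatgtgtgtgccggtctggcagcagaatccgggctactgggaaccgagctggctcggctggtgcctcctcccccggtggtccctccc
Abcc9: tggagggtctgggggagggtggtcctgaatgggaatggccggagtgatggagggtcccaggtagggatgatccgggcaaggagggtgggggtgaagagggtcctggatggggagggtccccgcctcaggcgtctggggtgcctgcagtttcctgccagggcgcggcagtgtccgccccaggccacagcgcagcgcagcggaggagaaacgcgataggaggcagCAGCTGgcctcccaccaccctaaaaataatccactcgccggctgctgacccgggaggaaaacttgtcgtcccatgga
Kcnk16: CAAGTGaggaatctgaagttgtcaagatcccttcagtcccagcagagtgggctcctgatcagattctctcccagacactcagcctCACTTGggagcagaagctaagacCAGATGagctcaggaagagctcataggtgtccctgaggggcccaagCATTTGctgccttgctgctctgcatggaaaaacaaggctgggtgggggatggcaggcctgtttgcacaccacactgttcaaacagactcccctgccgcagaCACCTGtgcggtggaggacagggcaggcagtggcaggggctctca

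The Kcnk16 stretch held 5 E boxes, and those of Kcnj8, Abcc9 and Kcnh6 held 1 each, while that of Kcnma1 held 0. At least 1 E box was present in 72.3% of the 32851 mouse start-site stretches of the same length, so its presence does not set these genes apart. CpG dinucleotides numbered 2 in Kcnk16, 9 in Kcnj8, 16 in Abcc9, 24 in Kcnh6 and 36 in Kcnma1, against a median of 7 over all stretches. The GC box GGGCGG, searched on both strands, was found 1 time in Abcc9 and 3 times each in Kcnh6 and Kcnma1 (35.7% of all stretches held it), and not in Kcnj8 or Kcnk16. Neither TATAAA (13.6% of stretches) nor TGACGTCA (1.79%) was found in any of the 5. These are matches of letters in a window and not measured binding sites.

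No probe of the 9 potassium channel genes passed a threshold between the genotypes. The number past a Benjamini-Hochberg adjusted p of 0.05 in limma was 0 of 18, where 0.0153% of all tested probes passed, and the number past an unadjusted p of 0.05, the level used in the study, was also 0 of 18, where 6.97% of all tested probes passed. The control and Wnt4βKO values overlapped for all 18 probes, while 7.21% of all tested probes had groups that did not overlap. The point estimates were higher in Wnt4βKO for 6 probes and lower for 12, with a median log2 fold change of -0.037, against 0.0027 over all tested probes. The confidence intervals below describe the values of 3 and 4 mice after an offset of 50 had been added. For dim probes they do not bound the size of a change. With an offset of 0, for example, Kcnj8 was 0.49, above its interval of -0.098 to 0.33. Throughout, a log2 fold change is Wnt4βKO minus control after background correction with an offset of 50, with its standard error and 95% interval from limma.

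**Figure D1:**
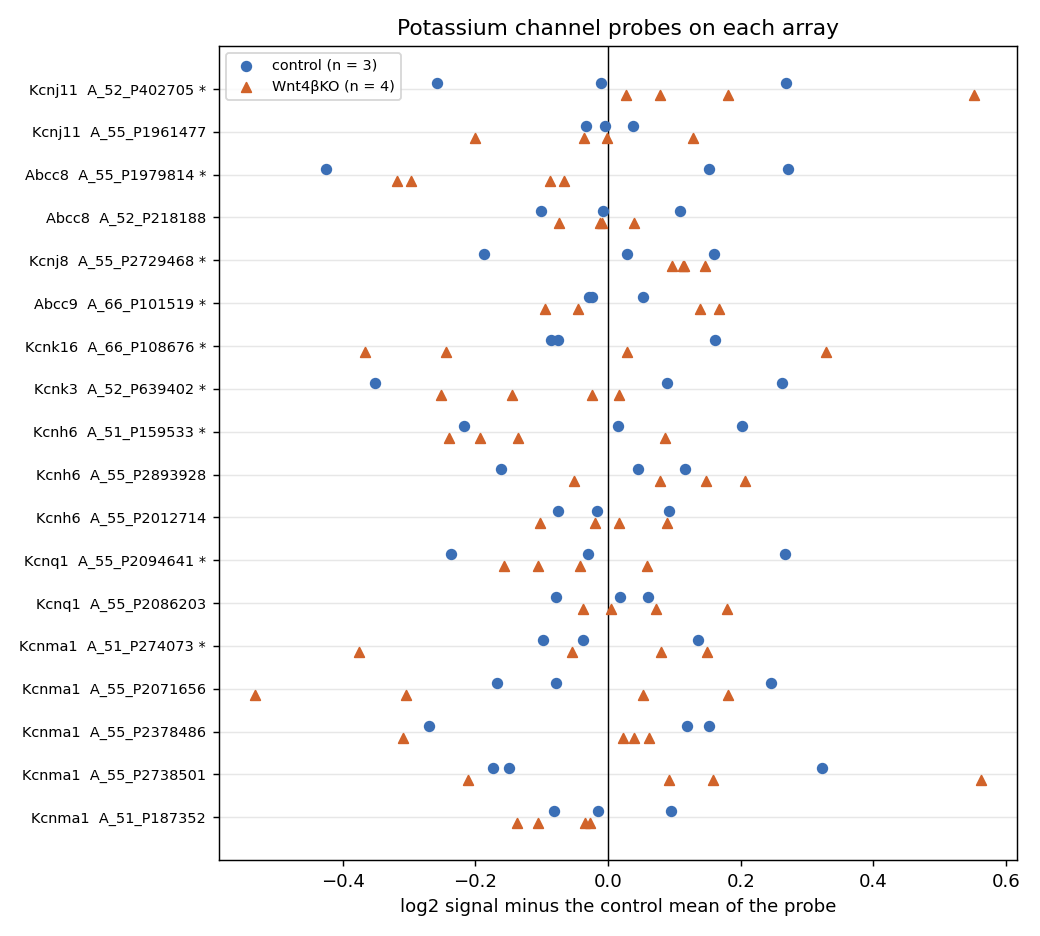
Each tested probe of the 9 channel genes is a row, and each point is 1 array, as log2 signal minus the probe's control mean (circles control, n = 3; triangles Wnt4βKO, n = 4; an asterisk marks the brightest probe of a gene). The points of the groups overlap in all 18 rows.

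The pore subunit of the β-cell channel was measured by 2 probes. On its brighter probe (A_52_P402705) Kcnj11 had log2 signals of 7.09, 7.37 and 6.84 on the control arrays (replicates 2, 3 and 4), against 7.18, 7.28, 7.65 and 7.13 on Wnt4βKO arrays 1 to 4. The highest of the 7 values was Wnt4βKO replicate 3 and the lowest control replicate 4, with the remaining Wnt4βKO values inside the control range. The means were 7.10 ± 0.26 (SD, n = 3) and 7.31 ± 0.24 (SD, n = 4). The log2 fold change was 0.21 ± 0.17 (SE), with an interval from -0.18 to 0.60 (limma, adjusted p = 0.867). Single arrays moved it, to 0.081 without control replicate 4, 0.096 without Wnt4βKO replicate 3 and 0.34 without control replicate 3. The second Kcnj11 probe (A_55_P1961477) was dim, at 1.27 to 2.09 times its local background, and gave -0.028 ± 0.089 (SE). Over the 7 arrays the probes' values had an r of -0.084, so they did not report a common pattern.

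Abcc8, the sulfonylurea receptor of the β-cell channel, was measured far above background. Its bright probe (A_55_P1979814) read 369 to 645 times its local background. Its log2 signals were 13.66, 13.78 and 13.09 on the control arrays (replicates 2, 3 and 4), against 13.44, 13.21, 13.19 and 13.42 on Wnt4βKO arrays 1 to 4. All 4 Wnt4βKO values lay between the lowest control value, that of replicate 4, and the other two. The means were 13.51 ± 0.37 (SD, n = 3) and 13.32 ± 0.13 (SD, n = 4). The difference on the log2 scale was -0.19 ± 0.17 (SE), with an interval from -0.60 to 0.21 (limma, adjusted p = 0.883). Each control array moved this value by more than 1.5 times when left out. Without control replicate 2 it was -0.11, without replicate 3 it was -0.059, and without replicate 4 it was -0.41 ± 0.11 (SE), past the unadjusted level but not the adjusted one (limma, adjusted p = 0.560). The second Abcc8 probe (A_52_P218188), at 1.13 to 1.48 times local background, gave -0.014 ± 0.076 (SE) and ran opposite to the bright probe over the arrays (r = -0.53).

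The Abcc8 difference had opposite signs in the 2 rows of the slide, of which row 1 held 1 control array. The 7 arrays lay in 2 rows of 1 slide, with control replicate 4 and Wnt4βKO replicates 1 and 2 in row 1 and the others in row 2. Within row 1 the bright Abcc8 probe was 0.24 higher on the log2 scale in Wnt4βKO, and within row 2 it was 0.42 lower, and with the row as a block it was -0.15 ± 0.16 (SE). Kcnj11 was higher in Wnt4βKO in both rows, by 0.39 and 0.16, and by 0.25 ± 0.15 (SE) with the block. Over the 18 tested probes, 10 had differences of opposite sign in the rows and 8 of the same sign. Every difference within row 1 rests on control replicate 4 alone, so the row cannot be told apart from that mouse. The differences within a row are given with no test, and opposite signs were not counted over all tested probes.

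The vascular KATP genes were near the detection limit of the array. Kcnj8, the pore subunit of that channel, has 1 probe (A_55_P2729468), which read 1.02 to 2.21 times its local background and was well above background on 2 of 3 control and 4 of 4 Wnt4βKO arrays. Its log2 signals were 5.90, 6.25 and 6.12 on the control arrays (replicates 2, 3 and 4), against 6.20, 6.19, 6.20 and 6.24 on Wnt4βKO arrays 1 to 4. Control replicate 2, which had the lowest value, was the array not well above background, and the 4 Wnt4βKO values lay inside the control range. For Kcnj8 the log2 fold change was 0.12 ± 0.092 (SE), with an interval from -0.098 to 0.33 (limma, adjusted p = 0.865). Without control replicate 2 it was 0.025, and without control replicate 3 it was 0.18.

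Abcc9, the sulfonylurea receptor of the vascular channel, also has 1 probe (A_66_P101519), which was well above background on all 7 arrays at 1.17 to 1.70 times its local background. Its log2 signals were 6.04, 6.04 and 6.12 on the control arrays (replicates 2, 3 and 4), against 6.02, 6.23, 5.97 and 6.20 on Wnt4βKO arrays 1 to 4. The Wnt4βKO values lay on both sides of the control values. For Abcc9 the log2 fold change was 0.041 ± 0.089 (SE), with an interval from -0.17 to 0.25 (limma, adjusted p = 0.954).

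The KATP pairs were then set side by side, and no gene of either passed a test. Relative to its control mean, the mean of Kcnj11 and Abcc8 was 0.071, 0.27 and -0.34 in the control arrays and 0.0060, -0.058, 0.12 and -0.030 in the Wnt4βKO arrays, on the log2 scale. The same mean of Kcnj8 and Abcc9 was -0.11, 0.067 and 0.040 in the control arrays and 0.034, 0.13, 0.0090 and 0.14 in the Wnt4βKO arrays. The Wnt4βKO means of 0.0088 for the β-cell pair and 0.079 for the vascular pair are given as a description. Kcnj11 and Abcc8 departed from their control means in opposite directions on Wnt4βKO arrays 1 to 4, which the pair mean hides. Of the 4 genes, Kcnj8 moved furthest when the background was treated otherwise. With an offset of 0, the Kcnj8 log2 fold change was 0.49 and that of Abcc9 0.12, and with the scanner's processed signal they were 0.52 and 0.043, none of them past an unadjusted p of 0.05. Under the same settings the log2 fold change was 0.32 and 0.21 for Kcnj11 and -0.19 and -0.034 for Abcc8.

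**Figure D2:**
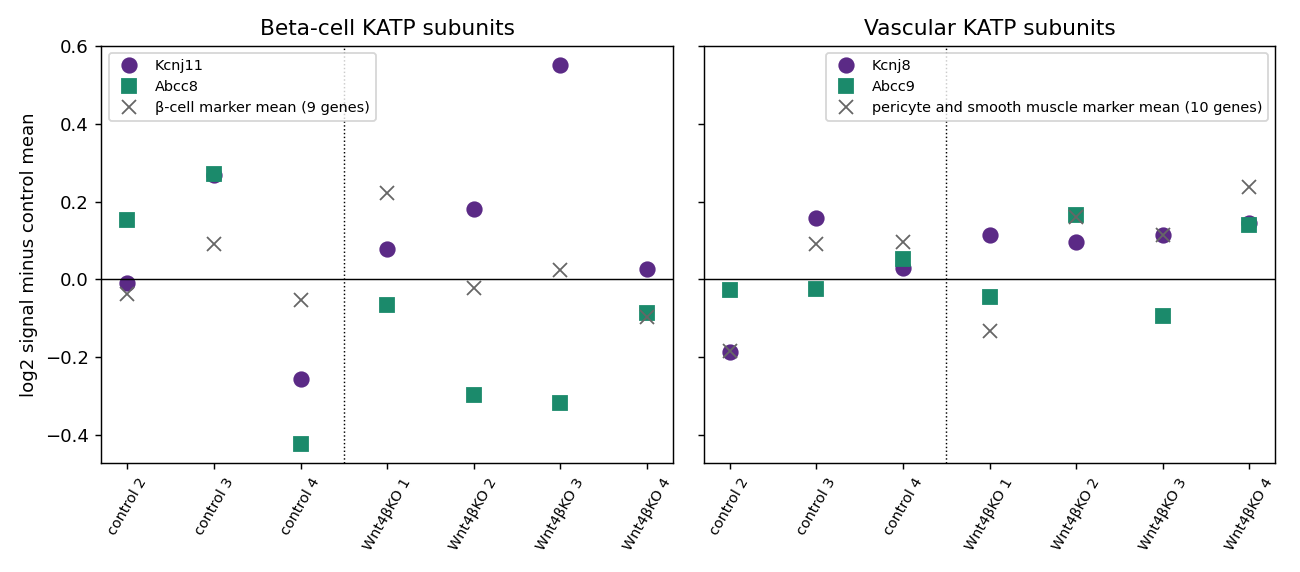
Log2 signal minus the control mean for Kcnj11 and Abcc8 (left) and Kcnj8 and Abcc9 (right) on each of the 7 arrays, with the mean over β-cell markers and over pericyte and smooth muscle markers as crosses. On the Wnt4βKO arrays Kcnj11 lies above 0 and Abcc8 below 0, and Kcnj8 lies between 0.096 and 0.15.

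Mean levels of β-cell markers and of pericyte and smooth muscle markers overlapped between the genotypes. The mean log2 signal over the 9 β-cell markers was 11.80 to 11.94 in control and 11.76 to 12.08 in Wnt4βKO islets. That over the 10 pericyte and smooth muscle markers was 7.24 to 7.52 in control and 7.29 to 7.66 in Wnt4βKO islets, and like Kcnj8 it was lowest in control replicate 2. Ins1 differed by 0.29 ± 0.098 (SE; past the unadjusted level alone, limma, adjusted p = 0.632) and Ins2 by 0.013. The differences of Gcg (-0.23), Sst (-0.14) and Ppy (0.052) did not pass an unadjusted p of 0.05. The mean over 6 markers of alpha cells was 8.46 to 8.99 in control and 8.56 to 9.07 in Wnt4βKO islets. That over 5 markers of delta and PP cells was 10.59 to 10.62 in control and 10.63 to 10.69 in Wnt4βKO islets, higher on all Wnt4βKO arrays. The mean over 12 markers of exocrine acinar cells was 14.33 to 14.48 in control and 13.52 to 14.28 in Wnt4βKO islets, lower on all Wnt4βKO arrays. Of these markers 10 were lower and 2 higher (Ctrb1 and Cpa1) in point estimate. In limma 2 of the 12 (16.7%, Rnase1 and Cela3b) were past an unadjusted p of 0.05, against 8.94% of all genes tested. The number past the adjusted threshold was 0. Of single genes 8.33% had groups that did not overlap, and how often means over a list do so was not counted. The mean over 5 duct markers, all 5 lower in point estimate, was 7.72 to 7.86 in control and 7.19 to 7.76 in Wnt4βKO islets. That over 9 endothelial markers, 6 lower and 3 higher, was 7.59 to 7.88 in control and 7.39 to 7.93 in Wnt4βKO islets. The part of these cells in the channel values was not tested. Wnt4 itself was 11.50 in control and 11.02 in Wnt4βKO islets, a log2 fold change of -0.49 ± 0.17 (SE), past the unadjusted level alone (limma, adjusted p = 0.651).

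The two-pore channels pass background potassium current and hold the membrane potential of resting cells. Kcnk16 (TALK-1) had log2 signals on its only probe (A_66_P108676) of 8.34, 8.59 and 8.35 on the control arrays (replicates 2, 3 and 4), against 8.18, 8.06, 8.46 and 8.76 on Wnt4βKO arrays 1 to 4. The Wnt4βKO arrays spread over a wider range than the controls and lay on both sides of them, with an SD of 0.31 against 0.14. The log2 fold change was -0.064 ± 0.17 (SE), with an interval from -0.46 to 0.34 (limma, adjusted p = 0.966). It was 0.23 lower in Wnt4βKO within slide row 1 and 0.14 higher within row 2, which held the 2 brightest Wnt4βKO arrays, and -0.0078 ± 0.13 (SE) with the row as a block.

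Kcnk3 (TASK-1), an acid-sensitive two-pore channel, had log2 signals (A_52_P639402) of 6.86, 7.30 and 7.47 on the control arrays (replicates 2, 3 and 4), against 7.06, 7.23, 7.19 and 6.96 on Wnt4βKO arrays 1 to 4. All Wnt4βKO values lay inside the control range, which control replicate 2 extended downward. Between the groups the log2 fold change was -0.10 ± 0.15 (SE), with an interval from -0.46 to 0.25 (limma, adjusted p = 0.928). Without control replicate 2 it was -0.28 and past the unadjusted level alone (limma, adjusted p = 0.668), and without control replicate 4 it was 0.030.

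Among the voltage-gated channels, Kcnh6 (ERG2) carries a current that helps to repolarise β-cells. Its brightest probe (A_51_P159533) gave log2 signals of 6.64, 6.45 and 6.22 on the control arrays (replicates 2, 3 and 4), against 6.30, 6.20, 6.24 and 6.52 on Wnt4βKO arrays 1 to 4. The values of 1 group ran through those of the other, with 1 Wnt4βKO value just under the lowest control. The log2 fold change was -0.12 ± 0.12 (SE), with an interval from -0.41 to 0.17 (limma, adjusted p = 0.896). Without control replicate 2 it was -0.019, without control replicate 4 it was -0.23 and without Wnt4βKO replicate 4 it was -0.19. With the processed signal it was -0.63 and past the unadjusted level alone (limma, adjusted p = 0.699). The other Kcnh6 probes gave 0.095 ± 0.099 (SE; A_55_P2893928) and -0.0041 ± 0.078 (SE; A_55_P2012714), so its 3 probes did not share a direction. Their correlations over the 7 arrays ran from -0.74 to 0.48.

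Kcnq1 (KvLQT1), a voltage-gated channel known for its role in the heart and for variants linked to type 2 diabetes, was at the edge of detection. Of its 4 probes, 2 (A_55_P2745108 and A_66_P102591) never rose well above background and read 0.75 to 1 times their local background. The brightest (A_55_P2094641) gave log2 signals of 5.98, 6.19 and 6.48 on the control arrays (replicates 2, 3 and 4), against 6.28, 6.17, 6.11 and 6.06 on Wnt4βKO arrays 1 to 4, all inside the control range. Its log2 fold change was -0.062 ± 0.13 (SE), with an interval from -0.36 to 0.23 (limma, adjusted p = 0.951). The remaining probe (A_55_P2086203), well above background on 2 control and 2 Wnt4βKO arrays, gave 0.055 ± 0.080 (SE). These 2 probes varied together over the arrays (r = 0.66) although their group differences had opposite signs.

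Kcnma1 (BK) opens on both voltage and calcium and shortens the action potential. It has 5 probes on the array, all tested. The brightest (A_51_P274073), at 10.7 to 20.2 times local background, gave log2 signals of 8.50, 8.56 and 8.73 on the control arrays (replicates 2, 3 and 4), against 8.22, 8.68, 8.54 and 8.75 on Wnt4βKO arrays 1 to 4. Wnt4βKO replicate 1 was the lowest array and the other Wnt4βKO values were close to the controls. For this probe the log2 fold change was -0.050 ± 0.14 (SE), with an interval from -0.37 to 0.27 (limma, adjusted p = 0.967). The other 4 probes ranged from -0.15 (A_55_P2071656) to 0.15 (A_55_P2738501), with 3 of them below 0. Correlations between the 5 probes ran from -0.63 to 0.40 over the 7 arrays, so the probes, each annotated to another transcript of the gene, did not report 1 common pattern.

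**Figure D3:**
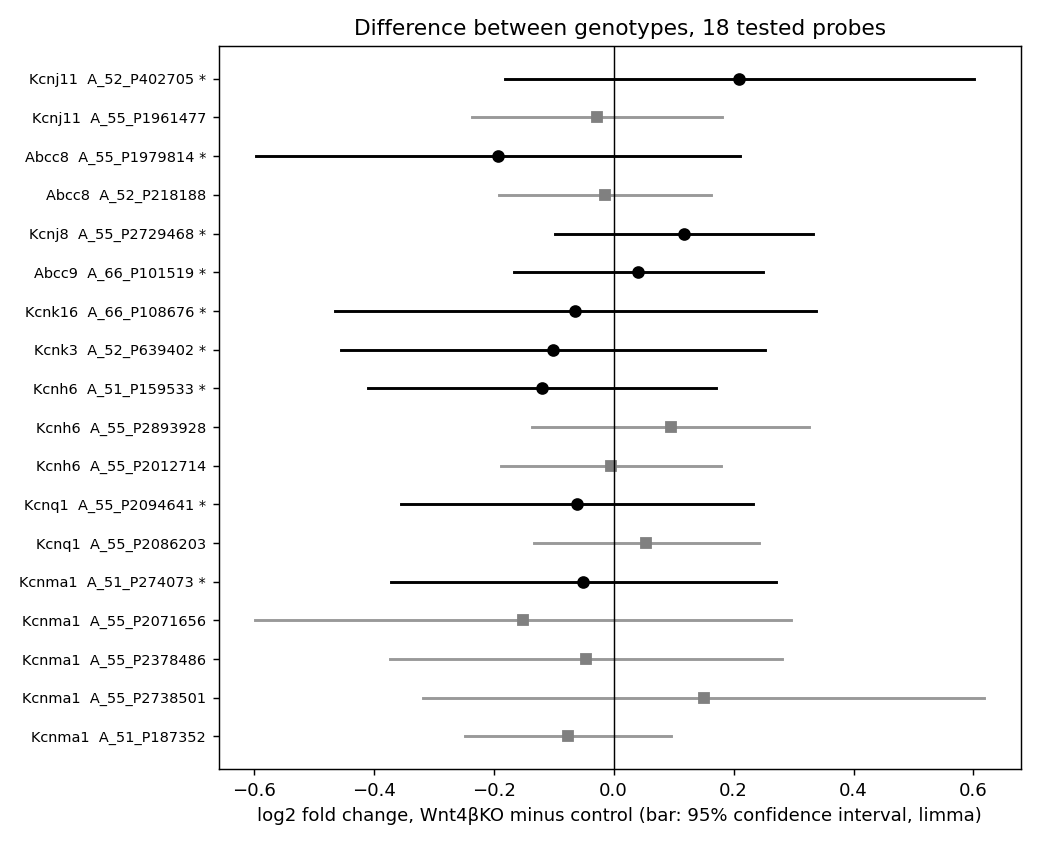
Log2 fold change, Wnt4βKO minus control, with its 95% confidence interval from limma for each of the 18 tested probes (black circles mark the brightest probe of a gene, gray squares its other probes). Every interval includes 0, and the estimates lie between -0.19 and 0.21.

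The spread between mice set how small a change could be seen. The median pooled SD within the groups was 0.160 on the log2 scale over all tested probes. It was 0.26 for the bright Abcc8 probe, wider than for 76.5% of tested probes, 0.26 for Kcnk16 and 0.25 for Kcnj11. For the dim probes of Kcnj8 and Abcc9 it was 0.11, on values to which the offset of 50 had been added.

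As a description of which transcripts tracked the KATP genes over the 7 arrays, the closest 3 of 11893 genes were found by Pearson's r, with arrays of both genotypes pooled. For Kcnj11 they were H3f3a (r = 0.987), Ahcyl2 (0.953) and Hmgn1 (0.947), and for Abcc8 they included Trpc4 (r = 0.980) and Ing2 (0.959). For Abcc9 they were Vill (r = 0.973), Snrpd3 (0.973) and Arrdc1 (0.955), while Kcnj8 was left out because it was not well above background on all arrays. None of the lists holds another subunit of a KATP channel. The 7 arrays shared 1 slide and 1 scan, and no p is given for these values.

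Beyond the 9 genes, the array has probes for 89 other genes whose symbols start with Kcn, of which 42 could be tested on their brightest probe and 47 were too dim. They are called other potassium channel genes by symbol alone, and include accessory genes such as Kcnip3, Kcnab1 and Kcne1. The number past the adjusted threshold in limma was 0 of 42, against 0.0219% of all genes tested this way. At an unadjusted p of 0.05 there were 4, or 9.52%, near the 8.94% of all 13668 genes tested by their brightest probe. In point estimates 24 were higher in Wnt4βKO and 18 lower, with a median log2 fold change of 0.014, against 0.0075 over all genes tested. Groups did not overlap for 2 of the 42, Kcnn4 and Kcnk12, where 8.33% of all genes had groups that did not overlap.

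Kcnn4, a calcium-activated channel of intermediate conductance that is known in immune and epithelial cells, had the smallest p of the list. Its log2 signals (A_55_P2802751) were 6.83, 6.83 and 6.70 on the control arrays (replicates 2, 3 and 4), against 7.36, 7.31, 7.47 and 7.75 on Wnt4βKO arrays 1 to 4. All 4 Wnt4βKO values lay above all 3 controls. The log2 fold change was 0.69 ± 0.12 (SE), with an interval from 0.42 to 0.96 (limma, adjusted p = 0.383, past the unadjusted level). A second Kcnn4 probe (A_51_P389636) also separated the groups, at 0.40 ± 0.090 (SE; limma, adjusted p = 0.494). Under the 19 alternatives the brighter probe ranged from 0.61 to 1.14, past an unadjusted p of 0.05 in all 19 and past the adjusted threshold in 0. The mean over the 4 tested immune markers of a list of 6 (Ptprc, Cd68, Csf1r and Cd3e) was 7.56 to 7.76 in control and 7.60, 7.58, 8.05 and 8.73 on Wnt4βKO arrays 1 to 4, with Lyz2 and Cd79a too dim to test. Its highest array was also that of the highest Kcnn4 signal, while 2 Wnt4βKO arrays with higher Kcnn4 had immune levels inside the control range. The part of immune cells in the Kcnn4 values was not tested.

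The other channel genes past the unadjusted level were Kcnk12, Kcnj12 and Kcnu1, which passed it under 17, 18 and 12 of the 19 alternatives. Kcnk12, a two-pore channel subunit, differed by 0.33 ± 0.10 (SE; limma, adjusted p = 0.616), with all 4 Wnt4βKO values (7.39 to 7.77) above the 3 controls (7.13 to 7.23). Kcnj12, an inward rectifier, differed by -0.72 ± 0.22 (SE; limma, adjusted p = 0.616) on its brighter probe, but by 0.11 ± 0.20 (SE) on its other one. Kcnu1, a channel known from sperm, differed by -0.31 ± 0.13 (SE; limma, adjusted p = 0.692). Next in order were Kcnk6 (-0.13 ± 0.081, SE) and Kcnj4 (0.29 ± 0.19, SE), neither past an unadjusted p of 0.05 and the former well above background on 4 of 7 arrays.

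**Figure D4:**
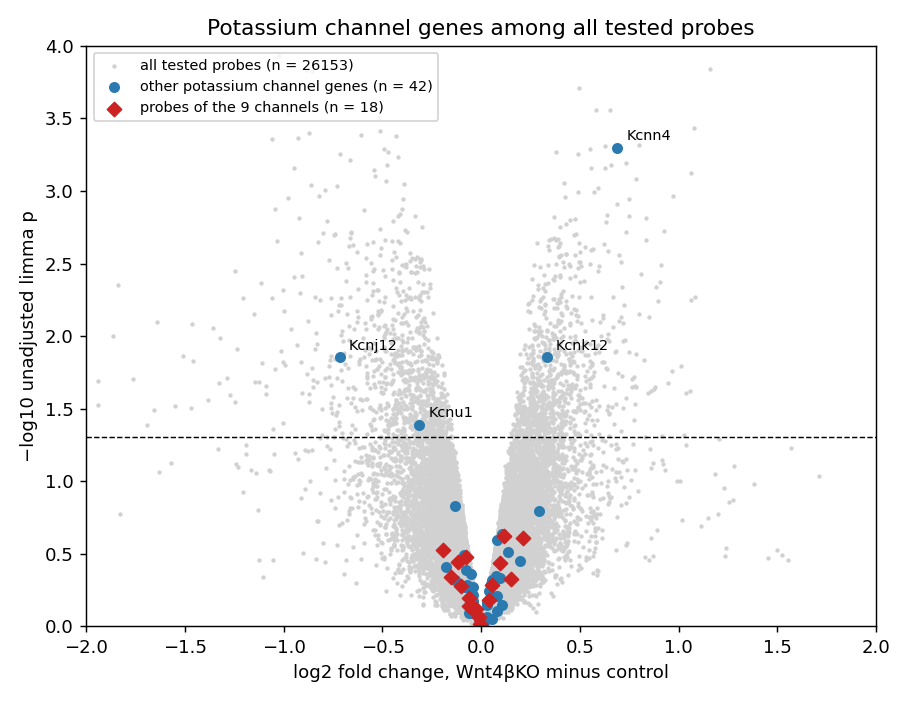
Log2 fold change against −log10 of the unadjusted limma p for all 26153 tested probes (gray; 13 lie outside the axes), the 42 other potassium channel genes (blue) and the 18 probes of the 9 channels (red diamonds). All red diamonds lie under the dashed line at a p of 0.05, and 4 blue points lie over it.

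Genes that couple glucose to the KATP channel or regulate its genes were taken as a list of 19, all of them tested. The list was chosen with earlier results of these data known, so its counts are a description and no measure of enrichment. In it, 1 (Slc2a2) passed the adjusted threshold in limma, against 0.0219% of all genes tested by their brightest probe. At an unadjusted p of 0.05 there were 3 (15.8%), Slc2a2 among them, against 8.94% of all genes. Slc2a2, the glucose transporter GLUT2 of mouse β-cells, had log2 signals of 9.94, 9.95 and 9.85 in control and of 8.17, 8.41, 8.34 and 8.58 in Wnt4βKO islets, with the groups apart. It fell by 1.54 ± 0.10 (SE; limma, adjusted p = 0.00878), and it passed the adjusted threshold under 12 of the 19 alternatives, whose adjusted p ran from 0.00657 to 0.550. Trpm5, a calcium-activated cation channel, differed by -0.33 ± 0.14 (SE; past the unadjusted level alone, limma, adjusted p = 0.710). Cacna1d, a voltage-gated calcium channel, did not pass an unadjusted p of 0.05 (-0.075 ± 0.11, SE). Over the 19 genes 8 were higher and 11 lower, with a median of -0.038.

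**Figure D5:**
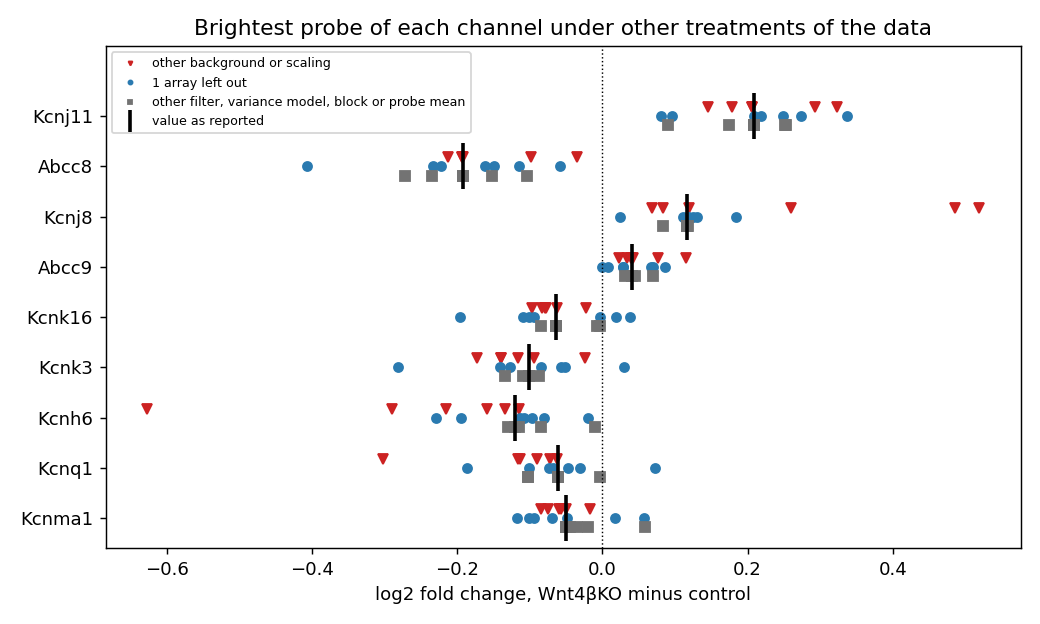
Log2 fold change of the brightest probe of each of the 9 genes as reported (black bar), under other background corrections and scalings (red triangles), with 1 array left out (blue circles), and under another filter, variance model, block or probe mean (gray squares). The values of Kcnj11, Abcc8, Kcnj8 and Kcnh6 stay on 1 side of 0, and the other 5 genes have values on both sides.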

How the data were processed

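Islet RNA of 3 control and 4 Wnt4βKO mice was measured, with 50 ng per sample labelled with Cy3 per the labels. Each array came as a scanner file that the authors deposited, with intensity values on a linear scale, from Agilent Feature Extraction (12.0.1.1 per the file headers, 9.1 in the submitters' processing notes). Following the study's methods, median spot and local background signals were corrected by normexp with an offset of 50 and quantile normalized in limma 3.58.1 under R 4.3.3. After that correction control spots were dropped, and flagged outlier spots were set to missing (65 values among the tested probes). Between 45.5% and 49.0% of non-control spots were well above background per array and 0 were saturated. Precision is limited by having 7 arrays. Probes that rose well above background on 3 or more arrays were fitted with lmFit and eBayes, two-sided, with Benjamini-Hochberg adjustment over 26153 probes, and no member probe had a missing value. Accessions were matched without versions to a RefSeq table (GRCm38.p6), which named 58.3% of 56605 probes. A gene was represented by its brightest probe, and member genes kept every probe.

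The members and gene lists were chosen with earlier results of these data known. The text names all members, Wnt4 and islet hormones as checks, the 6 other Kcn genes of smallest p and coupling genes at an unadjusted p under 0.05. For contrast, Cacna1c, Cacna1d and Cacnb2 were chosen after their values were seen. Only the value of Cacna1d is given, and it does not stand for the others. Some genes that this rule names are not reported here. Alternatives were other background corrections, scalings, filters, variance models and blocks, the mean over a gene's probes and each array left out. The authors' deposited table of log2 values (36693 probes) was not used, because its columns did not match the arrays: the r of a column with its own array, in deviations from the mean over arrays, was -0.13 to 0.073, and only 2 of 7 matched their own array best. Samples are separate mice per the labels. Deviations from the group mean in control and Wnt4βKO samples of the same number had an r of -0.13, 0.23 and -0.0069 (numbers 2, 3 and 4). Samples of different numbers were not compared, so these values do not settle whether the numbers pair the mice. Only the limma fit was tested on simulated log2 values, and not the background correction, normalization, filter or matching of accessions.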

Additional observations from a re-analysis of the deposited data

Results flagged for a closer look

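A Kcnma1 probe (A_55_P2378486) had 1 array far from the others of its group. Its log2 signal was 6.54 in Wnt4βKO replicate 4, against 6.87 to 6.91 in the other 3 Wnt4βKO arrays, and the gap was 0.896 of the group's range, above Dixon's 95% critical value for 4 samples. Control replicate 4 was also low on this probe, at 6.58, against 6.97 and 7.00 in the other controls. Without Wnt4βKO replicate 4 the log2 fold change was 0.041 in place of -0.046. Of 28 probes examined in this way 1 was past the critical value, where chance gives about 1 in 20.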

How the results depend on the processing

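The count of member probes past the adjusted threshold was 0 under all 19 alternatives, and that of the other potassium channel genes was also 0 under all 19. The count of member probes past an unadjusted p of 0.05 was 0 as reported, where 6.97% of all tested probes passed. It was 1 with the processed signal (Kcnh6), where 6.82% of all tested probes passed. With the replicate block it was also 1 (Kcnj11, 0.25 ± 0.083 (SE), limma, adjusted p = 0.813), where 5.98% passed. It ran from 0 to 1 when single arrays were left out. The probe past it was Abcc8 without control replicate 4 (7.35% of all tested probes) and Kcnk3 without control replicate 2 (7.45%). Wnt4βKO replicate 1 has no control of its number, so the block takes that array out of the genotype difference. Without that array and with no block, Kcnj11 was 0.25 ± 0.18 (SE). Whether the replicate numbers pair the mice is not known. The count of other potassium channel genes past an unadjusted p of 0.05 was 4 as reported and 2 both with the processed signal and with median scaling. Among all 26153 tested probes, 1822 passed as reported, 1784 with the processed signal and 771 with median scaling. Median scaling also moved the share of higher calls among all probes past an unadjusted p of 0.05 from 47.9% to 29.3%.

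Signs turned for probes with reported log2 fold changes from -0.10 (Kcnk3) to 0.041 (Abcc9). Not every probe in that range turned, as Kcnma1 A_51_P187352 (-0.076) kept its sign. With the replicate block, Kcnj11 A_55_P1961477 was 0.029, Kcnh6 A_55_P2012714 0.029 and Kcnma1 A_51_P274073 0.058. Without Wnt4βKO replicate 1, which that block also takes out of the difference, they were 0.028, 0.029 and 0.057. With array weights Abcc8 A_52_P218188 was 0.0030, and Kcnh6 A_55_P2012714 was 0.015 when the slide row was a block. When single arrays were left out, the lowest and highest values were, for Kcnj11 A_55_P1961477 from -0.081 to 0.028, for Abcc8 A_52_P218188 from -0.060 to 0.041, for Abcc9 A_66_P101519 from -0.00016 to 0.087, for Kcnk16 A_66_P108676 from -0.20 to 0.038, for Kcnk3 A_52_P639402 from -0.28 to 0.030, for Kcnh6 A_55_P2012714 from -0.042 to 0.038, for Kcnq1 A_55_P2094641 from -0.19 to 0.073, for Kcnma1 A_51_P274073 from -0.12 to 0.057 and for Kcnma1 A_55_P2378486 from -0.18 to 0.041. The cause of these turns was not tested. Averaging a gene's tested probes gave 0.091 for Kcnj11, -0.10 for Abcc8, -0.0096 for Kcnh6, -0.0036 for Kcnq1 and -0.035 for Kcnma1. Arrays near background limit Kcnj8, Abcc9 and Kcnq1. The deposited log2 table was not run as an alternative because its columns did not match the arrays.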
